A study of Mus musculus with 12 samples.

Results

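DICER1 G1809R, a hotspot mutant of the microRNA-processing enzyme DICER1, was compared with a GFP control across the mouse transcriptome in DKO172 cells. The comparison used the 3 arrays titled G1809R and the 3 titled GFP, matched by replicate number, which are 6 of the 12 arrays of the series. DKO172 is a mouse line that comes from a fallopian tumor, per the labels, which give neither further alleles nor its own Dicer1 state. All 4 groups of the series received 2 µg of the same kind of hygromycin-resistance plasmid, which coded for GFP, wild-type DICER1 (WT), DICER1 D1709N or DICER1 G1809R. Every culture was re-plated at 24 h, was then kept in 300 µg/ml hygromycin for 84 h, and was described as 108 h after transfection. The GFP cells therefore shared the plasmid, the transfection and the drug, and lacked a DICER1 insert. The cells were a selected pool of 1 line grown in serum. The labels do not say whether the numbered replicates were separate cultures, so p-values measure only the spread between these arrays, and that spread may be technical.

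DICER1 cuts hairpin precursors into microRNA duplexes with 2 catalytic RNase III domains. The RNase IIIb domain cuts on the side of the 5p strand and the RNase IIIa domain on the side of the 3p strand, and hotspot mutations of the IIIb domain are known to block release of 5p microRNAs while 3p microRNAs are still made. microRNAs lower the level of the messenger RNAs that carry matches to their seed. Type I interferon, which cells make on sensing foreign nucleic acid, acts through cell-surface receptors and transcription factors on a large set of interferon-stimulated genes.

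Levels are log2 intensities of 1 probe per gene, set against the array's own 75th percentile, so 0 is a bright gene and -5 lies close to background, and levels of different genes are not compared. The 6 arrays had 55.1% to 71.4% of probes well above background, with a mean of 64.4% ± 3.91 (SD, n = 3) for G1809R and 63.1% ± 8.16 (SD, n = 3) for GFP. An exact permutation test of these shares, two-sided, gave p = 1.0, where 3 arrays against 3 cannot go below 0.1. Replicate 1 of each group lay on slide 1, and replicates 2 and 3 lay on slide 2. The mouse Dicer1 probe read 1.17, 0.91 and 0.69 in G1809R and 1.36, 1.02 and 1.02 in GFP (limma with Benjamini-Hochberg adjustment, adjusted p = 0.283). Its change against GFP was -0.86 in WT (limma, adjusted p = 0.00129) and -0.31 in D1709N (limma, adjusted p = 0.116). The labels do not say whether this probe reads the plasmid's transcript, and this was not tested. Of the keratin genes of epithelial cells, Krt8, Krt18 and Krt19 were bright in both groups (Krt18 at 8.17 in G1809R and 8.02 in GFP, group means), while Krt7 (-1.59 and -2.38), Krt5 and Krt14 lay below the 75th percentile. The epithelial adhesion genes Cdh1 (-4.94 and -4.71) and Epcam (-3.86 and -4.09) were dim. The Müllerian and gonadal gene Wt1 was bright (5.52 and 5.31). So were the mesenchymal genes Vim (5.41 and 5.53) and Fn1 (6.21 and 6.42) and the gonadal genes Foxl2 (3.89 and 3.83) and Gata4 (3.69 and 3.60). Of the mesenchymal markers, Twist1, Fap and Lum were above background on none of the 6 arrays. The same held for the gonadal markers Amh, Fshr, Cyp11a1, Hsd3b1 and Lhcgr. Of the 15 gonadal markers on the array, 9 were above background on all arrays of each group, Nr5a1, Star and Cyp17a1 among them. Of the 19 oviduct and Müllerian markers on the array, 12 were above background on all G1809R arrays and 11 on all GFP arrays. The oviduct gene Ovgp1 was above background on all 6 arrays, as were Emx2, Wnt4, Amhr2, Esr1 and Pgr. The Müllerian factor Pax8 was above background on 1 array of each group, and Hoxa10, Hoxa11 and Sox17 on none.

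With the replicate number as a block, 904 of 24184 genes and transcripts, or 3.74%, passed an adjusted p of 0.05 between G1809R and GFP (limma). Of these, 424 were higher in G1809R (1.75%) and 480 lower (1.98%). At least 2-fold changes were counted for 117 of the higher genes (0.484% of all tested) and 66 of the lower (0.273%). All 904 had the same sign in 3 of 3 pairs, as did 46.2% of all genes tested. The G1809R and GFP arrays did not overlap at all for 562 of the 904, against 11.1% of all genes. The calls rest on the pairing: without the replicate block 3 genes passed (0.0124%), all lower in G1809R, while 1605 (6.64%) had an unadjusted p below 0.05. They also rest on single arrays, since leaving out G1809R replicate 1, 2 or 3 left 127, 18 or 130 calls, and leaving out GFP replicate 1, 2 or 3 left 263, 53 or 152. Leaving out D1709N replicate 1, 2 or 3, which enter through the shared spread, left 584, 475 or 463. Higher genes made up 46.9% of the calls here, 36.2% with quantile normalization (282 higher, 496 lower) and 36.3% in the deposited value table (337 higher, 592 lower). With the slide as the block 63 genes passed, and in the slide 2 arrays alone, a setting added after seeing the data, 149.

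**Figure D1:**
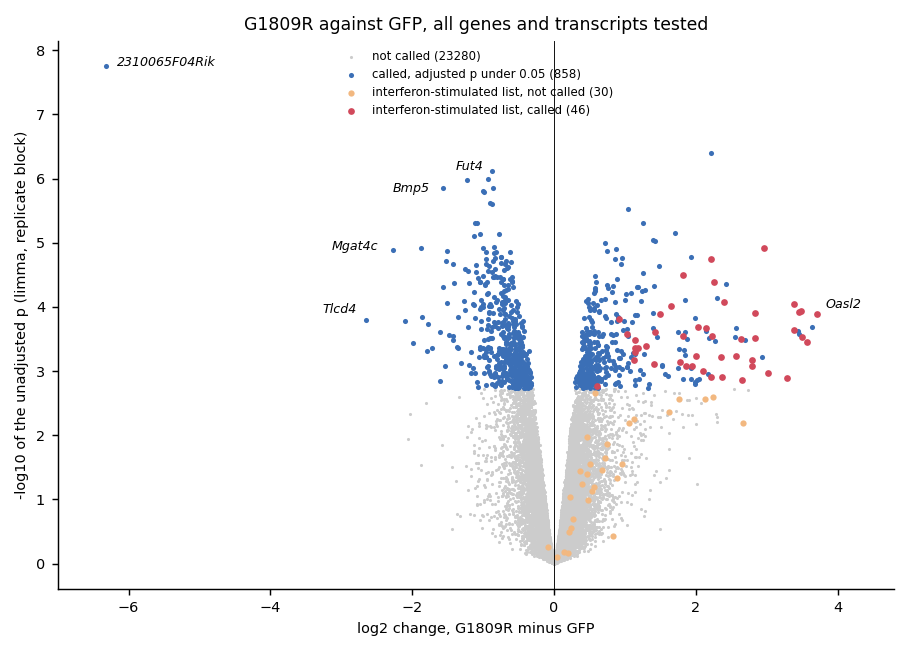
Each point is a gene or transcript (24184 in all), with its log2 change of G1809R minus GFP on the x axis and the -log10 of its unadjusted p from limma on the y axis. Red points are the 46 called genes of the interferon-stimulated list, which lie on the right, and 2310065F04Rik lies apart on the left at -6.32.

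The largest rises in G1809R were interferon-stimulated genes. Of 76 such genes tested, 46 rose, none fell, and 30 did not pass, against a background of 1.75% of all genes called higher. Their median log2 change was 1.63, beside 0.05 over all genes, and 75 of the 76 lay above 0. With probes above background on all 12 arrays, 67 of the 76 were kept and 48 of these rose. In that setting 656 of all 20208 genes were called higher. The median within pairs 1, 2 and 3 was 1.58, 1.55 and 1.39. This list was chosen with earlier results of these data known. The direction was the same under every setting tried, with list medians of 1.23 to 1.81, but the calls were not: 0 of the 76 passed without the replicate block (46 by an unadjusted p below 0.05), 1 with the slide as the block, 0 without the filter on dim probes (59 unadjusted), 0 without G1809R replicate 2, 2 without G1809R replicate 3 and 5 without G1809R replicate 1. Without GFP replicate 1, 2 or 3, 7, 6 or 6 passed, and 39 passed in the slide 2 arrays alone.

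Isg15, a ubiquitin-like modifier, stood at 4.16, 6.94 and 4.38 in G1809R replicates 1 to 3 and at 0.49, 3.81 and 0.71 in GFP. Replicate 2 was the highest array of each group, and every G1809R array lay above every GFP array. The log2 change was 3.49 ± 0.52 (SE of the limma fit, n = 3 arrays per group), an 11.2-fold rise. The adjusted p was 0.0167 in limma, and 0.558 without the block. Each SE of a change, here and below, comes from the fit to the whole series and not from the pair differences alone. Oasl2, an oligoadenylate synthetase-like antiviral protein, read 2.04, 3.84 and 1.60 in G1809R and -2.46, 0.78 and -1.97 in GFP. It had the largest fitted rise of a named gene, 3.71 ± 0.56 (SE), or 13.1-fold (limma, adjusted p = 0.017). Ifit1, which binds viral RNA, read 0.95, 3.52 and 0.92 in G1809R and -3.16, 0.33 and -2.26 in GFP, a rise of 3.49 ± 0.59 (SE; limma, adjusted p = 0.0229). For both genes the groups did not overlap, and replicate 2 was again the highest array of each group. Across the list the groups did not overlap for 38 of 76 genes, and for 33 of the 46 called, beside 11.1% of all genes. Over the whole list, G1809R replicate 2 was the highest G1809R array for 72 of 76 genes and GFP replicate 2 the highest GFP array for 63. The median level of the list was 0.82, 2.44 and 0.82 in G1809R replicates 1 to 3 and -1.56, 0.21 and -1.12 in GFP.

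**Figure D2:**
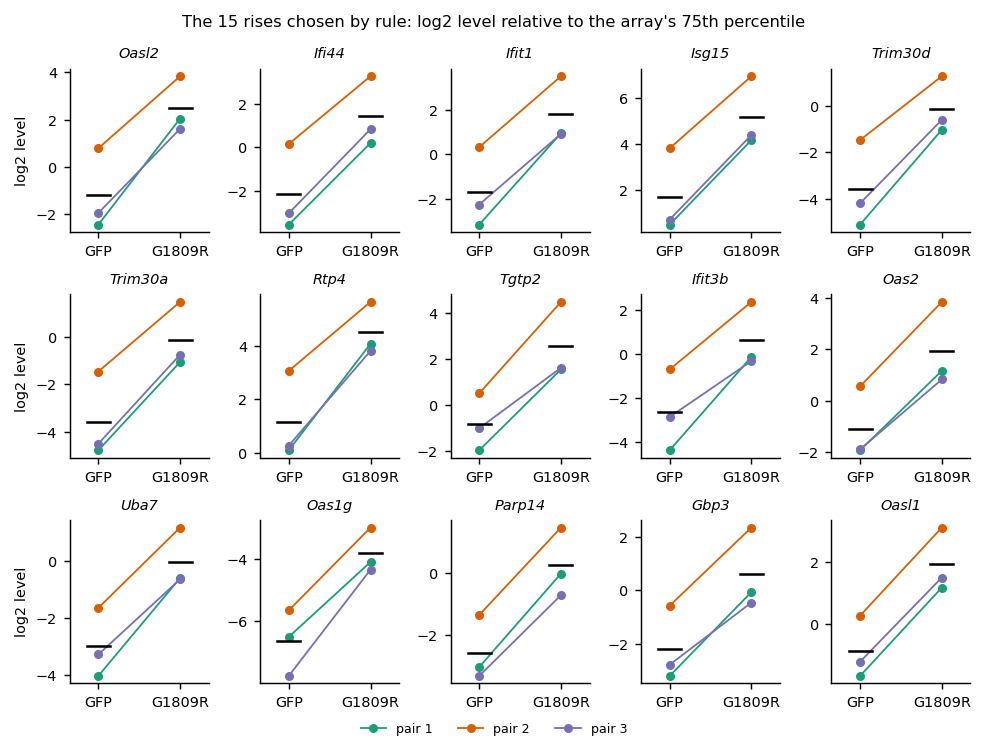
The 15 named rises, with the log2 level on the y axis, GFP at left and G1809R at right. Lines join arrays of the same replicate number and black bars are group means (n = 3). In each panel the 3 lines go up, and pair 2 sits above pairs 1 and 3.

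By role, the 2'-5' oligoadenylate synthetases and synthetase-like proteins had 5 of 6 members called higher, with a median log2 change of 2.81. They included Oas2 at 3.02 and Oasl1 at 2.79, while Oas3 stood at 2.24 with an adjusted p of 0.0571 (limma). Oas1g, with a fitted change of 2.83, was above background on 3 G1809R arrays and on 1 GFP array. Oas1g, which is among the 5 called, therefore passed the filter on dim probes without GFP. Its change, set against a level near background, is a description. With normexp background correction the change was 1.11 and was not called. In the ISG15 pathway 4 of 5 rose: Isg15, its activating enzyme Uba7 (2.97), its protease Usp18 (2.56) and the ligase Trim25 (0.61). Of the 4 IFIT genes 3 rose, and Ifit2 did not (-0.09, limma adjusted p = 0.77). PARP-family members and their partner rose in 4 of 4 cases, with Parp14 at 2.83. The guanylate-binding proteins and immunity-related GTPases, which attack intracellular pathogens, rose in 6 of 12 cases, with Tgtp2 at 3.38 and Gbp3 at 2.80. Their range was wide, from 0.14 to 3.38. Among transcription factors of the response, Irf7 (2.00) and Irf9 (0.91) rose. Antigen processing and MHC class I genes had the lowest median of these groups, 0.68, with 1 of 7 called, the immunoproteasome subunit Psmb9 (1.03).

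Other named rises were Ifi44 (3.57), Trim30d (3.46), Trim30a (3.45), Rtp4 (3.39) and Ifit3b (3.28). Trim30a and Trim30d, Tgtp2 and Tgtp1, Ifit3b and Ifit3, and the Oas1 genes are near copies of each other, so their probes may read more than 1 of them. Of the 117 rises of at least 2-fold, 45 were on an interferon list, 2 on other lists and 70 on none. Of those 70, 34 carry a RefSeq symbol. Chosen after their values were seen, Irgm2 (1.85), Samd9l (1.76), Ube2l6 (1.61), Nmi (1.34), Parp10 (1.21) and Helz2 (1.09) are also known to respond to interferon. Others among the 34 included Cdx1, a homeobox factor of the gut (1.25), and Pou3f1, a POU-domain transcription factor (1.09).

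The upstream DNA of the leading rises is shown because interferon-stimulated genes are known to be bound by IRF family factors at repeats of GAAA. Stretches from the RefSeq promoter table (GRCm38.p6) are printed for the 4 called members of the list with the largest rises that have a match upstream of the start. Capitals mark the motif, 2 copies of GAAA with any 2 bases between them, on either strand, so that a match on the other strand appears as 2 copies of TTTC, and overlapping matches run together.
Ifit1, chr19:34640760-34640838, + strand: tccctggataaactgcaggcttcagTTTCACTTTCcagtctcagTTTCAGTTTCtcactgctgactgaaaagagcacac
Isg15, chr4:156200850-156200921, - strand: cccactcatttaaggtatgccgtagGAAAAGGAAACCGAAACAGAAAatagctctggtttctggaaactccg
Trim30a, chr7:104465195-104465254, - strand: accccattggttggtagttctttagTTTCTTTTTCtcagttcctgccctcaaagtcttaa
Tgtp2, chr11:49064248-49064307, - strand: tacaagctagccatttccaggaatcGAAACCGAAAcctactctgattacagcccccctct
The motif lay within 250 bases before to 50 bases after the start for 20 of the 36 called genes of the list with a promoter entry (55.6%). It was present for 8 of the 22 list genes that were not called (36.4%), and in 3.63% of the 11708 tested genes with an entry. Among genes called higher outside both interferon lists it was found for 14 of 182 (7.69%), and among genes called lower for 12 of 312 (3.85%). Over all 32851 windows of this length the share was 3.44%. A match describes letters in a window and not binding.

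Genes upstream of the interferon response gave fewer calls. Of 23 ligands, receptors and sensors tested, 6 rose and 1 fell, with a median of 0.11. Of all genes 1.75% were called higher and 1.98% lower. The calls of this list went to 0 without the replicate block, with the slide as the block and without the filter on dim probes. They also went to 0 when any G1809R or GFP array was left out, and in the slide 2 arrays alone 5 rose. Ifih1, which encodes the double-stranded RNA sensor MDA5, read -1.31, 0.07 and -1.64 in G1809R and -4.22, -2.48 and -4.10 in GFP, so that all G1809R arrays lay above the GFP arrays. Its log2 change was 2.64 ± 0.45 (SE; limma, adjusted p = 0.0233). The other rises were the helicases Dhx58 (2.35) and Ddx58 (1.14, which encodes RIG-I), the RNA editing enzyme Adar (1.26), the kinase Eif2ak2 (1.18, which encodes PKR) and the feedback inhibitor Socs1 (0.49). The group ranges of Dhx58, Ddx58 and Socs1 overlapped, and those of Adar and Eif2ak2 did not. Most of the sensors are themselves interferon-inducible, and several stand on the interferon-stimulated list as well. The kinase Ikbke fell by 0.52. Ifnb1, the ligand interferon beta, read -4.12, -3.88 and -3.86 in G1809R and -8.27, -5.31 and -6.49 in GFP, without overlap. It was above background on 3 G1809R arrays and 1 GFP array, so it passed the filter on dim probes through DICER1 groups and not through GFP. Its change of 2.74, against a GFP level near background, was not called and is a description. With normexp background correction it was 0.88, and without GFP replicate 1 it was 1.89. The receptors Ifnar1 (-0.03) and Ifnar2 (-0.05) and the kinase Jak1 (0.02) had changes near 0 that did not pass.

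The largest fall by far was 2310065F04Rik, a non-coding transcript of chromosome 11 whose function is not described in the files. It read -3.88, -4.08 and -3.54 in G1809R and 1.83, 3.11 and 2.54 in GFP. The change was -6.32 ± 0.31 (SE), or 80.1-fold lower (limma, adjusted p = 0.00042). It was also called without the block (0.000192) and under every other setting tried, with changes of -6.63 to -5.39. The transcript stood at -3.46 ± 0.31 (SD, n = 3) in WT and -3.68 ± 0.54 (SD, n = 3) in D1709N. The difference of G1809R from WT was -0.37 (limma, adjusted p = 0.496), and that from D1709N was -0.15 with a 95% interval of -0.87 to 0.56.

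The other genes called without the block were Fut4 and Celf1. Celf1, an RNA-binding regulator of splicing and decay, was level within each group, at 2.96, 2.86 and 2.93 in G1809R and 3.92, 3.89 and 3.74 in GFP. It fell by 0.94 ± 0.08 (SE; limma, adjusted p = 0.00439), and its largest adjusted p over all settings was 0.0434. With the mean of its probes in place of the brightest, the change of Celf1 was -0.57. Fut4, a fucosyltransferase that makes the Lewis x antigen, read -3.94, -4.14 and -3.86 in G1809R and -2.69, -2.85 and -2.71 in GFP. It fell by 1.23 ± 0.10 (SE; limma, adjusted p = 0.00439). With the mean of its probes in place of the brightest, Fut4 had -0.55 and did not pass (0.132), so its probes disagree, and with normexp it had -0.74. For both genes the groups were far apart compared with the spread of the arrays.

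Of the 91 called genes that the naming rule picks, 6 were called whichever array was left out: 2310065F04Rik, Celf1, Fut4, Bmp5, Mgat4c and Tet2, all lower in G1809R. Bmp5, a bone morphogenetic protein, read -2.70, -2.36 and -3.27 in G1809R and -1.25, -0.85 and -1.54 in GFP, a change of -1.56 ± 0.13 (SE; limma, adjusted p = 0.00439). Mgat4c, an N-glycan-branching transferase, read -6.01, -4.63 and -4.98 in G1809R and -3.35, -2.80 and -2.64 in GFP, and it was above background on 2 of 3 G1809R arrays. Its change was -2.27, and -1.09 with normexp background correction. Tet2, an oxidase of methylated cytosine that opens the way to DNA demethylation, read 0.43, 0.37 and 0.19 in G1809R and 1.64, 1.42 and 1.17 in GFP. Its change was -1.08 ± 0.11 (SE; limma, adjusted p = 0.00807), or 0.13 without the block. In each of these 3 genes all G1809R arrays lay below all GFP arrays.

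**Figure D3:**
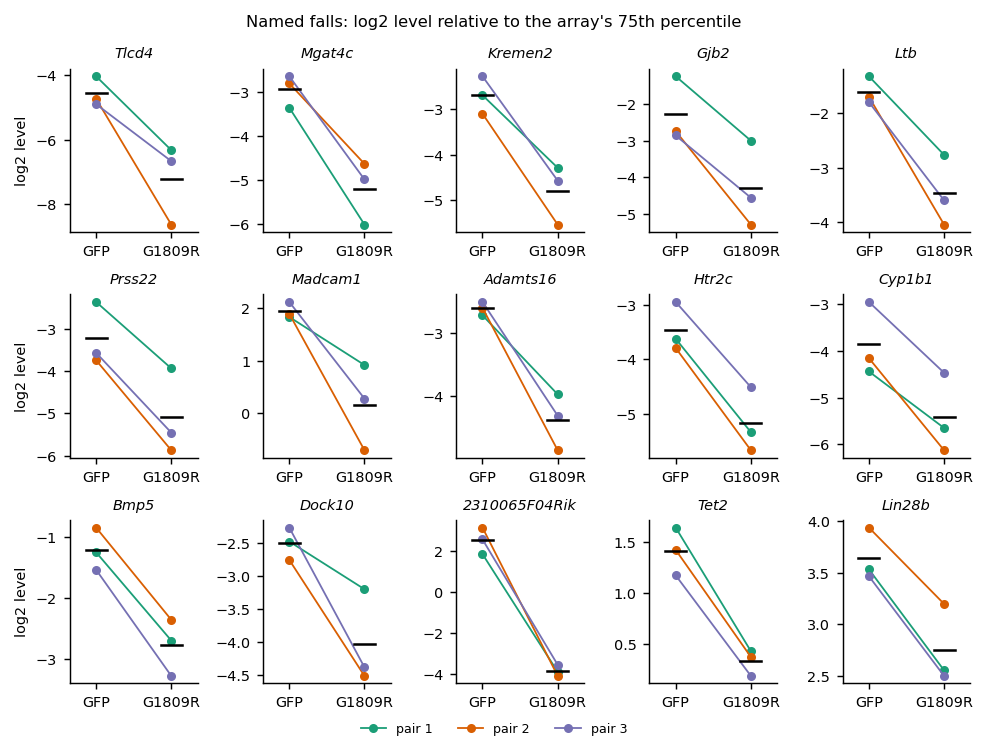
Of the named falls, the 12 with the largest size beside 2310065F04Rik, Tet2 and Lin28b, with the log2 level on the y axis, GFP at left and G1809R at right. Lines join arrays of the same replicate number and black bars are group means (n = 3). All lines go down, and 2310065F04Rik drops from between 1.83 and 3.11 to between -4.08 and -3.54.

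The other named falls were all smaller than that of 2310065F04Rik. Tlcd4 was not well above background on any G1809R array and was on all 3 GFP arrays, so it was at least 3.41-fold lower. Tlcd4 passed the filter on dim probes only through GFP and so had to differ, which is why no test is given. Kremen2, a receptor for the Wnt antagonists of the Dickkopf family, fell by 2.10, and Gjb2, the gap junction protein connexin 26, fell by 1.99. The lymphotoxin subunit Ltb and the serine protease Prss22 each fell by 1.87. The adhesion molecule Madcam1 (-1.79), the protease Adamts16 (-1.78) and the serotonin receptor Htr2c (-1.72) followed. The cytochrome Cyp1b1 was above background on 3 GFP arrays, 2 G1809R arrays and no array of WT or D1709N. It too passed the filter only through GFP, so its change of -1.57 is a description. Fst, which encodes the activin antagonist follistatin, fell by 1.52, and the secretory granule protein Scg2 by 1.49. Dock10, a guanine nucleotide exchange factor, fell by 1.53, and the synaptic vesicle protein Unc13c by 1.51. In GFP, Madcam1 lay above the array's 75th percentile, at 1.95. With normexp background correction these changes kept their direction, and several were smaller, at -1.14 for Kremen2, -1.23 for Gjb2, -0.88 for Prss22, -1.03 for Adamts16, -0.75 for Htr2c, -0.63 for Cyp1b1, -0.61 for Tlcd4 and -0.79 for Unc13c. The group ranges of Fst and Scg2 overlapped, although each fell in 3 of 3 pairs.

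Lists of genes commonly given as microRNA targets were described by arm, since G1809R is a mutant of the RNase IIIb domain. The mature microRNAs behind 7 of the 16 target lists are shown from RefSeq (GRCm38.p6), with the seed, bases 2 to 8, in capitals. The first 3 are 5p microRNAs and the last 4 are 3p microRNAs, and no seed is shared between them.
let-7a-5p: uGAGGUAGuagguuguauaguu
miR-26a-5p: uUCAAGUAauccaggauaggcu
miR-125b-5p: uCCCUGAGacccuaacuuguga
miR-29a-3p: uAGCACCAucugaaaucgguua
miR-101a-3p: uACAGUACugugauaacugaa
miR-200b-3p: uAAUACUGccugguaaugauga
miR-221-3p: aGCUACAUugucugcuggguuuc
The arms are seen in the hairpins of Mirlet7a-1 (chr13:48538179-48538272, - strand), whose mature 5p strand is in capitals, and Mir29a (chr6:31062660-31062747, - strand), whose mature 3p strand is in capitals.
Mirlet7a-1: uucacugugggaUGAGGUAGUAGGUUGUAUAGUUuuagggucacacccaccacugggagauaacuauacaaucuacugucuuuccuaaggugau
Mir29a: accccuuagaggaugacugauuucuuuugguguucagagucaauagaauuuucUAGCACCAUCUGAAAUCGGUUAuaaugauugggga
No microRNA was measured on these arrays.

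Target lists of both arms had median changes near 0. Of 247 genes on the 8 lists of 3p microRNAs, 20 fell (8.10%) and 3 rose, and their median change was -0.11, beside 0.05 over all genes and 1.98% called lower. That share includes transcripts without a gene symbol. Of the 14732 genes tested that carry a RefSeq symbol, 409 were called lower and 283 higher. Of 213 genes on the 8 lists of 5p microRNAs, 14 fell (6.57%) and 3 rose, with a median of -0.05. The arms share 50 genes, of which 8 fell. Of the genes on 3p lists alone 12 of 197 fell (6.09%), and of those on 5p lists alone 6 of 163 (3.68%). The difference between the arms was not tested. The counts rest on single arrays as do all counts here: each list of 4 to 6 falls named below went to between 0 and 1 when the array that mattered most was left out. Without the block no gene of these lists was called.

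Among the 3p lists, miR-29 had 6 of 64 falls and no rise: the pro-apoptotic Hrk (-1.25) and Bmf (-0.74), Tet2 (-1.08) and the collagen Col1a2 (-0.64) were among them. The list of miR-221 and its family had 4 of 22, led by the chemokine Cxcl12 (-1.41) and the zinc-finger repressor Trps1 (-1.03), with Bmf and the transcription factor Ets1 (-0.74). miR-101 had 4 of 31, the polyglutamine protein gene Atxn1 (-0.76), the fibrillin Fbn2 (-0.80), Zeb2 (-0.50) and Mycn (-0.50). miR-200 had 4 of 30: the actin-binding substrate Marcks (-0.65), the VEGF receptor Kdr (-0.53), Zeb2, a repressor of epithelial genes, and Cyp1b1, which had passed the filter on dim probes only through GFP. The related repressor Zeb1 read 1.80, 1.60 and 1.66 in G1809R and 2.11, 2.13 and 1.89 in GFP, with a change of -0.36 that did not pass (limma, adjusted p = 0.0713). The medians of the miR-101, miR-200 and miR-221 lists were -0.18, -0.20 and -0.22, and they were below 0 under each scaling tried and within each pair.

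Among the 5p lists, let-7 had 6 of 60 falls and 1 rise, with a median of -0.10. Lin28b, which blocks let-7 processing and is itself a let-7 target, read 2.55, 3.20 and 2.50 in G1809R and 3.53, 3.93 and 3.46 in GFP. The groups did not overlap, and the change was -0.89 ± 0.16 (SE; limma, adjusted p = 0.0291). Hic2 (-0.60), Mycn (-0.50), Gdf6 (-1.17, or -0.43 with normexp) and Col1a2 fell as well, and the cell cycle factor E2f2 rose (0.68). The paralog Lin28a read 4.12, 3.62 and 3.38 in G1809R and 3.99, 3.65 and 3.35 in GFP. Its change was 0.05, with a 95% interval of -0.16 to 0.25. Hmga2 (0.12, interval -0.22 to 0.45), Igf2bp1 (-0.15) and Igf2bp2 (-0.03, interval -0.23 to 0.16), oncofetal let-7 targets, had changes that did not pass, and Igf2bp3 had -0.72 with an adjusted p of 0.146 (limma). Of the miR-125 list 5 of 27 fell, with Tet2, Lin28b, Bmf, Ets1 and the NF-kB inhibitor Tnfaip3 (-0.65), and the BMP-responsive Id3 rose (0.59). Of the miR-26 list 3 of 27 fell, which were Tet2, Lin28b and Col1a2, so the same few genes recur across lists.

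**Figure D4:**
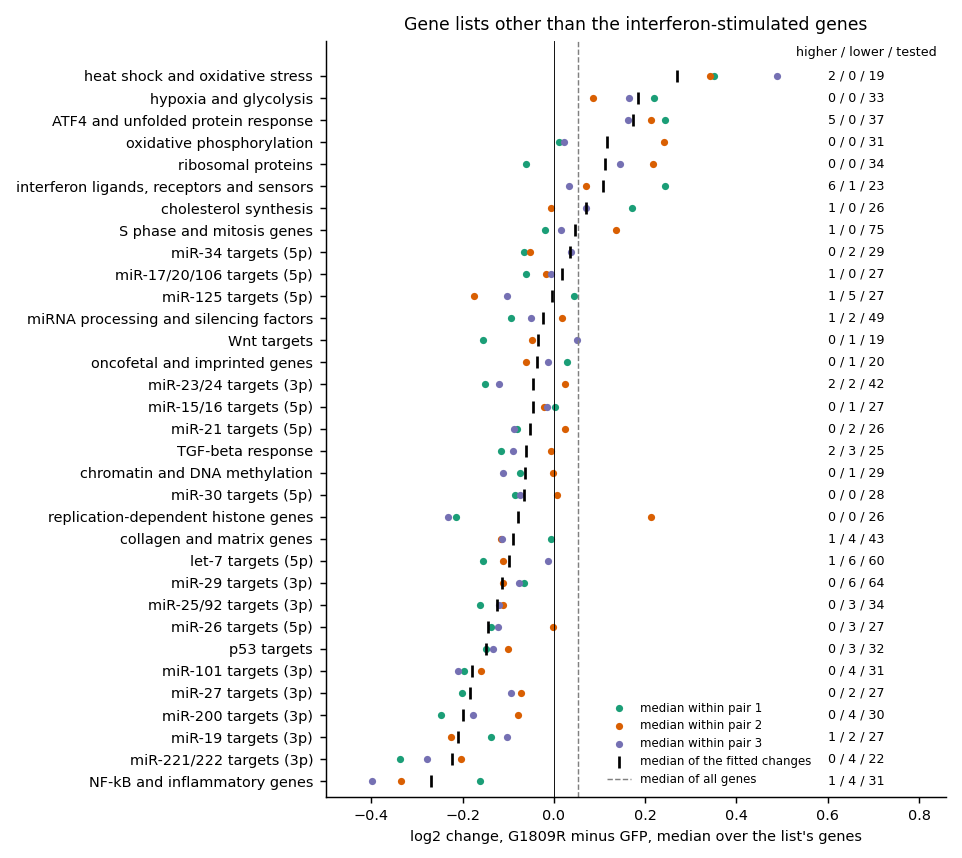
Median log2 change of G1809R minus GFP on the x axis, with 1 row per list, for the lists other than the interferon-stimulated genes and the cell type markers. Black ticks are medians of the fitted changes, coloured points are medians within each pair, the dashed line is the median of all genes (0.05), and the numbers at right count genes called higher, called lower and tested. Of the lists shown, the NF-kB list is lowest at -0.27 and the heat shock and oxidative stress list highest at 0.27.

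Beyond microRNA targets, NF-kB and inflammatory genes had a median of -0.27, with 4 of 31 lower and 1 higher, where 1.98% of all genes were called lower and 1.75% higher. The median was -0.16 without GFP replicate 2. The falls were the inhibitors of the pathway Nfkbia (-0.56), Nfkbie (-0.66) and Tnfaip3 and the adhesion molecule Vcam1 (-1.03), while the siderophore-binding Lcn2 rose (1.28). Vcam1 read 0.36, 1.04 and 1.05 in G1809R and 1.43, 1.98 and 2.13 in GFP, without overlap. As background, Nfkbia, Nfkbie and Tnfaip3 are themselves induced by NF-kB. ATF4 and unfolded protein response genes had 5 of 37 rises and no fall: the pseudokinase Trib3 (0.92) and the mitochondrial folate and serine synthesis enzymes Aldh1l2 (0.90), Mthfd2 (0.65), Psph (0.63) and Phgdh (0.47). In the oxidative stress list the glutathione synthesis subunit Gclm (0.58) and the thioredoxin reductase Txnrd1 (0.52) rose, 2 of 19. In each of these 3 lists the calls went to 0 when the array that mattered most was left out.

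The counts that follow stand beside 1.75% of all genes called higher and 1.98% called lower. TGF-beta and BMP response genes moved both ways: the BMP-induced Id1 (0.75) and Id3 (0.59) rose, and Tgfb2 (-0.96), Ltbp2 (-0.75) and Fst fell, 5 of 25 in all. In the matrix list Tnc (-1.25), Fbn2, Col1a2 and the laminin Lamb1 (-0.52) fell and Mfap5 rose (0.66), of 43 tested. With normexp Tnc had -0.58 and Mfap5 0.35. Of the p53 targets 3 of 32 fell, Btg2 (-0.53), Eda2r (-0.46) and Trp53inp1 (-0.43), and Cdkn1a had 0.05 (limma, adjusted p = 0.792). S phase and mitosis genes had 1 of 75 called, E2f2, with a median of 0.05, beside 0.05 over all genes. Ccna2, cyclin A2, read 3.87, 3.72 and 3.81 in G1809R and 3.76, 3.47 and 3.62 in GFP (limma, adjusted p = 0.204). Of 34 ribosomal protein genes and 31 oxidative phosphorylation genes limma called 0, with 3 and 1 at an unadjusted p below 0.05, where all genes had 20.8%. The hypoxia and glycolysis list had 0 of 33 calls in limma, 10 at an unadjusted p below 0.05, and a median of 0.18. The count of 10 became 3 without G1809R replicate 1, GFP replicate 1 or GFP replicate 3.

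Markers of other cell types were summed per array, and the G1809R and GFP ranges overlapped for every list given here. Calls stand beside 1.98% of all genes called lower and 1.75% called higher. The summed linear level of the 15 smooth muscle markers on the array ranged from 48.8 to 125 in G1809R and from 68.4 to 182 in GFP, and Acta2 (-0.99) and Cnn1 (-1.03) were called lower, with group ranges that overlapped. Mesenchymal markers summed to 150.3 to 216 and 162 to 253, with 4 of 19 called lower, among them Zeb2 and the receptor Pdgfra (-0.47), and S100a4 called higher (1.01). The 14 endothelial markers summed to 27.7 to 36.6 in G1809R and 35.1 to 41.2 in GFP. Of these, 7 were above background on all arrays of each group, among them Kdr (group means 3.7 and 4.2) and Egfl7 (4.1 and 4.1). Kdr was called lower (-0.53), 1 of 7 tested. Cdh5, Tek, Tie1, Emcn and Erg were above background on none of the 6 arrays. Leukocyte markers summed to 24.7 to 33.6 in G1809R and 21.0 to 29.3 in GFP, with 0 of 8 called. Of the 16 on the array, 8 were above background on all arrays of each group. Among these were Itgam (group means 3.79 and 3.57), Csf1r (2.72 and 2.16) and Cd4 (1.97 and 1.84). Ms4a1, Lyz2 and Ncr1 were above background on none of the 6 arrays. The part of such cells in the matrix, NF-kB and interferon results was not tested. In bulk RNA, fewer cells of a type and less RNA per cell cannot be told apart.

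Set against the other DICER1 constructs, G1809R differed from WT in 3064 genes (12.7%, 1538 higher, or 6.36%, and 1526 lower, or 6.31%; limma with the replicate block) and from D1709N in 0. Without the block 397 genes differed from WT, 251 higher and 146 lower (0.604%). Leaving out G1809R replicate 1, 2 or 3 left 1637, 1573 or 1940 calls, and leaving out WT replicate 1 left 2016. The split against WT depends on the scaling. With scaling to the median it was 3749 higher and 540 lower, and the median of all genes moved from 0.01 to 0.25. S phase and mitosis genes were higher in G1809R than in WT for 59 of 75 genes and lower for none, with a median of 0.63, or 0.62 above all genes under both scalings. Without the block 24 of the 75 were higher. Of the let-7 list 21 of 60 were higher and 7 lower (11 and 0 without the block), with Lin28a at 2.60 ± 0.09 (SE), Lin28b at 1.80, E2f2 at 2.21, Hic2 at 1.02 and Ccna2, which is on the S phase list, at 1.34. Lin28b in G1809R therefore lay between GFP (3.64 ± 0.25, SD, n = 3) and WT (0.95 ± 0.05, SD, n = 3), and both steps passed the test with the replicate block. The step from GFP did not pass without the block (limma, adjusted p = 0.449). With 1 array left out, its adjusted p in limma reached 0.109. Of the interferon-stimulated genes, 70 of 76 lay below their level in WT, but only Gbp2 (-1.41), Cxcl10 (-1.53) and Ifitm3 (-0.85) passed, and without the block none did.

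Against GFP, which all 3 constructs share as control, the median change of the interferon-stimulated list was 1.63 for G1809R, 2.40 for WT and 1.09 for D1709N. For Isg15 the 3 changes were 3.49, 4.42 and 2.98. Celf1 stood at 2.92 in G1809R, 2.86 in WT and 2.94 in D1709N (group means). Tet2 had -1.08, -1.20 and -1.44, and Fut4 had -1.23, -0.16 and -1.71. Fut4 was lower in G1809R than in WT by the direct test (-1.07; limma, adjusted p = 0.000811), as was Bmp5 (-1.09; limma, adjusted p = 0.00199). Celf1 and Tet2 had differences from WT of 0.06 and 0.11 that did not pass.

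The count of 0 between G1809R and D1709N does not show that the mutants act alike. Unadjusted p-values below 0.05 were 1063 (4.40% of genes) with the block and 65 without it (limma). For the interferon-stimulated genes 72 of 76 lay higher in G1809R than in D1709N, with a median of 0.40 and 0 calls, and the unadjusted 95% interval excluded 0 for 1 gene. The 95% interval of Isg15 was -0.68 to 1.70 and that of Oasl2 -0.43 to 2.13, so differences within these ranges were not resolved. Intervals were narrower for genes with little spread, such as Celf1 (-0.20 to 0.15) and Lin28a (-0.07 to 0.34).

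**Figure D5:**
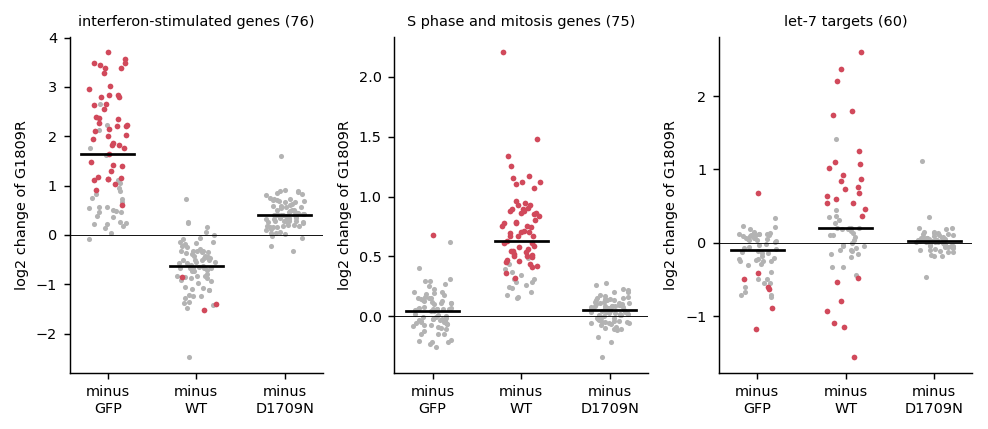
Log2 change of G1809R minus GFP, minus WT and minus D1709N on the y axis for 3 gene lists, with 1 point per gene, red where called by limma, and a black bar at the median. Interferon-stimulated genes rise against GFP (median 1.63), S phase and mitosis genes are higher against WT (median 0.63), and no gene of these lists is called against D1709N.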

How the data were processed

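Total RNA (100 ng) was labelled with Cy3 and hybridized to 1-colour Agilent arrays, per the labels' protocols. The submitters' processing notes name Agilent Feature Extraction 11.0.1.1. The deposited scanner files hold a background-subtracted intensity per spot, with no scaling between arrays. The deposited value table holds log2 values of unstated scaling (array medians 9.40 to 9.42), and it served as an alternative only.

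Here the log2 intensity of 59305 non-control spots was set relative to each array's 75th percentile, and spots of a probe were averaged without flagged outliers. Of 55681 probes, 33024 well above background on all arrays of at least 1 group were kept, and the brightest probe stood for its gene, leaving 24184. Names come from RefSeq through accessions (14732 matched). No non-control spot was saturated. The number of arrays limits the precision.

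limma 3.58.1 (R 4.3.3) was fitted to all 12 arrays with group and replicate number, with Benjamini-Hochberg adjustment over all genes at 0.05. Pairing by replicate number was set for this comparison, and the labels do not explain the numbers. The deviations of same-numbered G1809R and GFP arrays from their group means correlated at 0.849, 0.723 and 0.721. Replicate 1 of each group was also its only array on slide 1, so number and slide cannot be told apart for pair 1. Named genes were the 15 largest rises and 15 largest falls among calls with 1 sign in 3 of 3 pairs, a probe above background on all arrays of at least 1 of the 2 groups and a symbol that is no clone name, genes called without the block, up to 5 calls per list and a set of let-7, cell cycle and interferon genes. The fit was tested on simulated data. A fold written "at least" sets the bright group's mean against a floor, which per array of the dim group is its lowest well-measured signal or the probe's own, whichever is higher. The members, the 41 lists and the motif were chosen with earlier results of these data known. The normexp alternative used the median spot signal.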

Additional observations from a re-analysis of the deposited data

How the results depend on the processing

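Arrays number 3 a group, and genes near background have the least certain changes. The replicate block decides most calls: 904 genes between G1809R and GFP became 3 without it, 63 with the slide as the block, 416 with only these 2 groups in the fit, 12 without the filter on dim probes, 1393 with probes above background on all 12 arrays, 504 with median scaling and 183 at 2-fold or more. Leaving out 1 array gave 18 (without G1809R replicate 2) to 1082. The slide 2 arrays alone, added after seeing the data, gave 149, of which 118 were shared. The 105 called list members became 0 without the replicate block, 5 with the slide block, 0 without the dim filter, 46 in slide 2, and 1 (without G1809R replicate 2) to 125 with 1 array left out. Against WT, 3064 became 397 without the replicate block, 1206 with the slide block, 171 with 2 groups, 1581 without the dim filter, 407 at 2-fold, 682 in slide 2, and 1573 to 2773 with 1 array left out. Against D1709N, the count of 0 stayed between 0 and 1, the latter without GFP replicate 3. The other settings run for each count kept it within 1.5 times, and the 2-fold limit was not applied to list members. Of the 101 named genes, 0 changed direction past the threshold.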
